A study of Bos taurus with 30 samples.

Results

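FOXO1, FOXO3 and FOXO4 and 5 genes that FOXO factors are known to activate, namely PDK4, SESN1, SESN3, CCNG2 and KLHL24, were followed in epithelial and stromal cells of the bovine endometrium that were given glucose or insulin. These 8 genes were taken by their symbols from the 27607 gene identifiers of the count tables, and all 8 were found with 1 identifier each. FOXO1 was ENSBTAG00000044105, FOXO3 was ENSBTAG00000011234, FOXO4 was ENSBTAG00000004879 and PDK4 was ENSBTAG00000014069. SESN1 was ENSBTAG00000003015, SESN3 was ENSBTAG00000004034, CCNG2 was ENSBTAG00000021768 and KLHL24 was ENSBTAG00000017450. Each of them had reads in all 30 libraries.

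FOXO proteins are forkhead transcription factors that sit at the end of the insulin pathway. When insulin activates its receptor, PI3K and the kinase AKT phosphorylate the FOXO proteins, which then leave the nucleus, so that their targets fall without a change in FOXO mRNA being needed. In fasting the same targets rise, and in the endometrium FOXO1 is best known for its part in the decidual response of stromal cells and in the receptive epithelium. Of the targets, PDK4 is the kinase that switches off pyruvate dehydrogenase and so spares glucose. SESN1 and SESN3 are sestrins, stress proteins that restrain mTORC1, CCNG2 is the growth-inhibiting cyclin G2, and KLHL24 is a substrate adaptor of a cullin ubiquitin ligase.

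Primary cells came from the uteri of cows that were not pregnant and early in the luteal phase, with epithelial cells in the upper and stromal cells in the lower chamber of a device with a porous membrane, and medium flowed through the device. Cells were seeded in medium with fetal bovine serum, and the study does not say whether the flowed medium held serum. They were taken at the end of the flow only, so earlier responses were not read. In the glucose experiment, the medium held 5 mM glucose, the control, or 50 mM glucose. In the insulin experiment, all groups had 5 mM glucose, with vehicle (acetic acid in PBS), 1 ng/mL insulin or 10 ng/mL insulin. Each of the 10 groups of cell type and treatment held 3 libraries. The study describes the replicates as biological, but the labels only number them and do not tie a number to a cow. The p-values thus measure the spread between these libraries that is left once differences between replicate numbers are taken off.

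The glucose libraries held 13493503 to 16647701 counted reads and the insulin libraries 8826470 to 13214728. Levels are given as CPM, in which each count is scaled by the total of its library, which does not allow for transcript length, so levels are compared between libraries and not between genes. A count of 0 allows up to 3 counts, or 0.18 to 0.34 CPM, for counting error only. Of 28 epithelial markers 28 were found, and their summed level in stromal libraries is given below as a percent of its mean in the epithelial libraries of the same experiment. It was 0.0565% to 4.01% in the insulin experiment but 0.582% to 55.2% in the glucose experiment. The highest value belonged to stromal replicate 3 at 50 mM glucose, where the 27 stromal markers found of 28 stood at 38.8% of their stromal mean. The stromal markers were at 2.07% to 11.9% in epithelial libraries. Another library that stood apart was epithelial replicate 2 at 5 mM glucose, with epithelial markers at 154%. The 4 leukocyte markers found of 10 summed to 2.52 to 16.8 CPM, and the 7 endothelial markers found of 8 to 2.66 to 77.5 CPM. In these bulk samples, fewer cells of a type and less RNA per cell cannot be told apart.

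The values of the 3 FOXO factors are given first, always in the order of replicates 1, 2 and 3. In epithelial cells, FOXO1 had 61.3, 29.1 and 44.1 CPM at 5 mM glucose and 46.0, 37.9 and 40.9 CPM at 50 mM. In stromal cells it had 70.0, 49.7 and 40.1 CPM at 5 mM and 61.0, 50.8 and 44.4 CPM at 50 mM. The groups of both cell types overlapped, and in the stromal cells the libraries of one replicate number lay close together. With insulin, epithelial FOXO1 was 32.6, 28.5 and 43.7 CPM in the vehicle group, 35.5, 31.6 and 48.5 CPM at 1 ng/mL and 34.6, 30.8 and 42.4 CPM at 10 ng/mL. Stromal FOXO1 was 27.9, 24.2 and 31.0 CPM in the vehicle group, 22.0, 28.9 and 27.4 CPM at 1 ng/mL and 28.6, 25.7 and 26.0 CPM at 10 ng/mL. The 9 epithelial libraries kept the order of their replicate numbers at every dose, with replicate 3 highest and replicate 2 lowest.

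FOXO3 in epithelial cells had 65.4, 133 and 84.1 CPM at 5 mM glucose and 57.5, 65.3 and 84.5 CPM at 50 mM. The highest of these 6 values came from the epithelial library with the high marker level. In stromal cells, FOXO3 had 61.7, 27.9 and 35.4 CPM at 5 mM and 43.9, 32.5 and 75.5 CPM at 50 mM, where the highest value came from the stromal library with epithelial markers at 55.2%. With insulin, epithelial FOXO3 was 71.3, 54.2 and 63.1 CPM in the vehicle group, 61.0, 60.1 and 60.2 CPM at 1 ng/mL and 74.0, 59.7 and 67.3 CPM at 10 ng/mL. Stromal FOXO3 was 29.9, 27.2 and 28.4 CPM in the vehicle group, 26.9, 21.5 and 25.2 CPM at 1 ng/mL and 31.0, 25.9 and 27.9 CPM at 10 ng/mL. Thus every stromal library at 1 ng/mL lay below every vehicle library, whereas the 10 ng/mL libraries overlapped with both.

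FOXO4 was read less deeply, with 42 to 262 counts per library. Epithelial FOXO4 had 6.72, 17.3 and 13.2 CPM at 5 mM glucose and 7.28, 8.59 and 11.7 CPM at 50 mM. Stromal FOXO4 had 13, 7.48 and 16.0 CPM at 5 mM and 12.1, 9.76 and 11.3 CPM at 50 mM. All these groups overlapped. With insulin, epithelial FOXO4 was 8.62, 7.65 and 12.3 CPM in the vehicle group, 10.5, 8.52 and 10.9 CPM at 1 ng/mL and 8.47, 7.82 and 8.71 CPM at 10 ng/mL. Stromal FOXO4 was 6.56, 6.43 and 4.55 CPM in the vehicle group, 6.67, 5.43 and 5.16 CPM at 1 ng/mL and 6.36, 5.35 and 5.28 CPM at 10 ng/mL. Each of the 9 epithelial libraries of the insulin experiment was above each of the 9 stromal ones. FOXO6, the remaining family member in the annotation, did not pass the filter on low counts in any comparison.

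Among the targets, PDK4 separated the cell types most widely in the insulin experiment. In epithelial cells it had 33.9, 5.93 and 10.6 CPM at 5 mM glucose and 27.1, 10.8 and 12.1 CPM at 50 mM. In stromal cells it had 6.78, 0.817 and 1.34 CPM at 5 mM and 5.57, 3.62 and 20.8 CPM at 50 mM. Replicate 1 was the highest epithelial library at both concentrations, and stromal replicate 3 at 50 mM was above 4 of the 6 epithelial libraries. With insulin, epithelial PDK4 was 10.1, 15.3 and 9.57 CPM in the vehicle group, 8.45, 11.2 and 10.8 CPM at 1 ng/mL and 9.47, 11.4 and 8.29 CPM at 10 ng/mL. Stromal PDK4 was 0.875, 2.17 and 0.867 CPM in the vehicle group, 2.04, 0.17 and 1.05 CPM at 1 ng/mL and 2.35, 0.351 and 0.769 CPM at 10 ng/mL. The lowest of these rested on 2 counts, fewer than the 3 that a count of 0 allows.

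The sestrin SESN3 also stood higher in epithelial cells. It had 50.8, 24.9 and 26.5 CPM in epithelial libraries at 5 mM glucose and 60.8, 47.6 and 26.3 CPM at 50 mM. Stromal SESN3 had 5.80, 3.08 and 1.22 CPM at 5 mM and 6.38, 6.96 and 17.5 CPM at 50 mM. The stromal groups did not overlap, and the largest step was in the library with the high epithelial marker level. With insulin, epithelial SESN3 was 16.6, 31.2 and 37.5 CPM in the vehicle group, 14.4, 26.8 and 43.2 CPM at 1 ng/mL and 12.9, 28.3 and 34.1 CPM at 10 ng/mL. Stromal SESN3 was 6.56, 6.88 and 11.2 CPM in the vehicle group, 8.15, 5.77 and 9.20 CPM at 1 ng/mL and 7.87, 5.96 and 9.32 CPM at 10 ng/mL. In both cell types replicate 3 was highest at every insulin dose.

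The other sestrin, SESN1, had the opposite order of cell types. In epithelial cells SESN1 had 2.20, 1.78 and 6.03 CPM at 5 mM glucose and 4.16, 4.57 and 7.16 CPM at 50 mM. In stromal cells SESN1 had 5.54, 5.85 and 7.75 CPM at 5 mM and 4.19, 7.98 and 6.70 CPM at 50 mM. Every epithelial pair was higher at 50 mM, but the groups overlapped. With insulin, epithelial SESN1 was 4.55, 2.89 and 3.94 CPM in the vehicle group, 3.88, 3.42 and 4.87 CPM at 1 ng/mL and 2.78, 3.17 and 3.88 CPM at 10 ng/mL. Stromal SESN1 was 7.52, 5.16 and 4.55 CPM in the vehicle group, 5.37, 5.6 and 5.97 CPM at 1 ng/mL and 6.36, 6.67 and 8.36 CPM at 10 ng/mL. Every stromal library at 10 ng/mL was above every one at 1 ng/mL.

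CCNG2 varied more between replicates than any other gene in the glucose experiment except PDK4 in stromal cells. Epithelial CCNG2 had 10.2, 30.2 and 47.2 CPM at 5 mM glucose and 14.6, 21.0 and 63.4 CPM at 50 mM. Stromal CCNG2 had 14.0, 5.97 and 18.0 CPM at 5 mM and 12.8, 9.83 and 48.7 CPM at 50 mM. Replicate 3 was the highest in all 4 groups. With insulin, epithelial CCNG2 was 46.1, 30.6 and 27.7 CPM in the vehicle group, 40.3, 35.5 and 28.3 CPM at 1 ng/mL and 45.2, 27.1 and 25.7 CPM at 10 ng/mL. Stromal CCNG2 was 10.4, 14.6 and 15.2 CPM in the vehicle group, 15.0, 15.1 and 16.8 CPM at 1 ng/mL and 9.99, 15.0 and 19.1 CPM at 10 ng/mL. Here replicate 1 was the highest epithelial and the lowest stromal library at every dose.

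KLHL24 behaved differently in the experiments. Epithelial KLHL24 had 20.7, 13.9 and 47.7 CPM at 5 mM glucose and 26.7, 25.8 and 56.0 CPM at 50 mM. Stromal KLHL24 had 42.1, 26.3 and 63.6 CPM at 5 mM and 40.8, 25.7 and 66.3 CPM at 50 mM. In the stromal cells the replicates kept both their order and nearly their level across the glucose concentrations. With insulin, epithelial KLHL24 was 38.6, 37.8 and 41.6 CPM in the vehicle group, 40.5, 41.1 and 40.0 CPM at 1 ng/mL and 45.3, 41.0 and 42.1 CPM at 10 ng/mL. Stromal KLHL24 was 40.6, 41.2 and 32.1 CPM in the vehicle group, 41.4, 39.9 and 34.7 CPM at 1 ng/mL and 37.2, 39.3 and 32.9 CPM at 10 ng/mL. These 18 libraries lay in a narrow range, without a separation of the cell types over all doses.

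**Figure D1:**
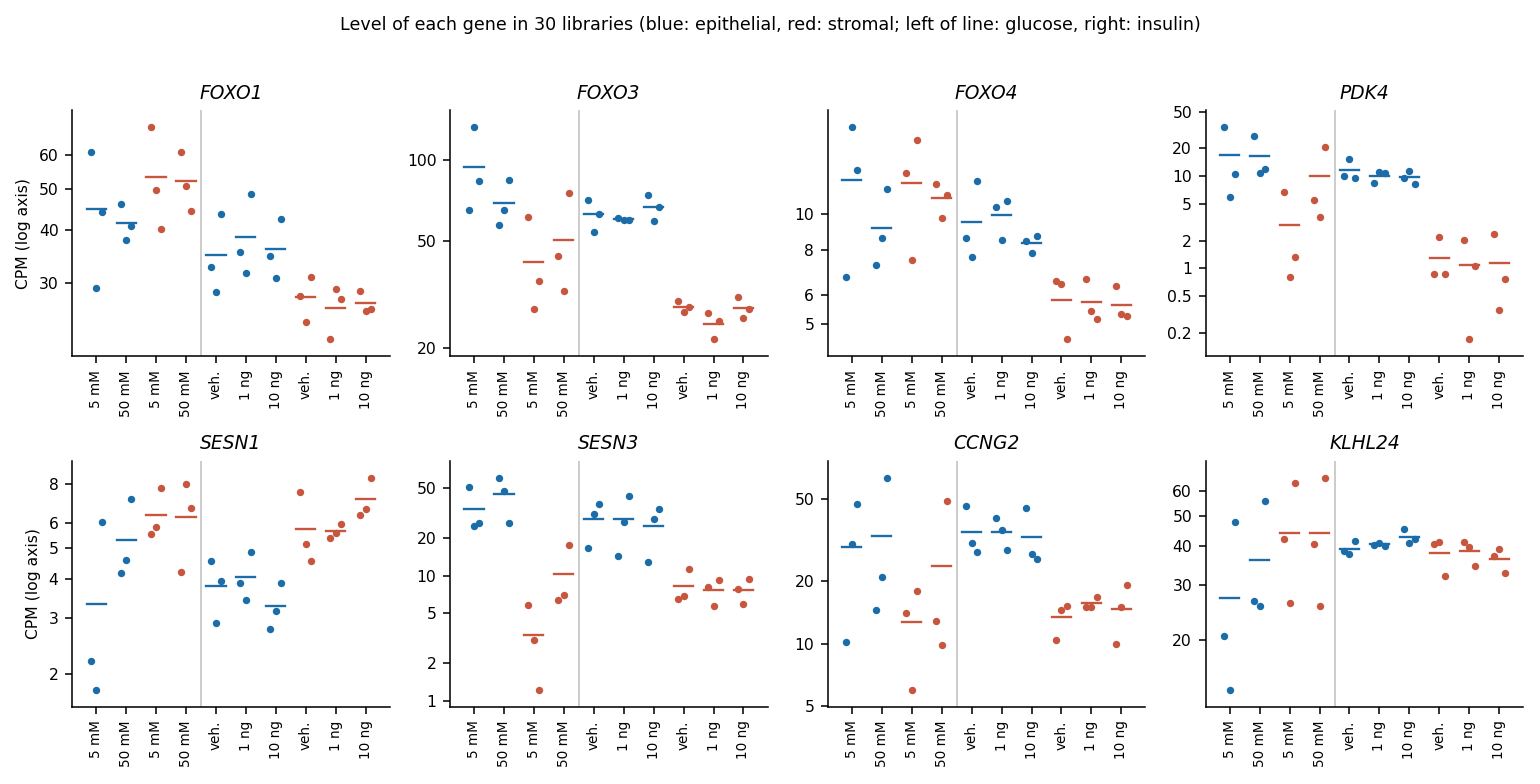
Level of the 8 genes in the 30 libraries, in CPM on a log axis, by cell type (blue epithelial, red stromal) and treatment (veh., vehicle; ng, ng/mL insulin). Points are libraries and bars are group means of 3 libraries. PDK4 and SESN3 separate the cell types most widely, and stromal replicate 3 at 50 mM glucose lies high for PDK4 (20.8 CPM), SESN3 (17.5 CPM) and CCNG2 (48.7 CPM).

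The spread over replicate numbers exceeded the spread over treatments for most of the 8 genes. For each gene, the highest replicate mean was divided by the lowest, and the same was done for the treatment means. In the glucose experiment the replicate ratio spans more means, each of fewer libraries, than the treatment ratio. It is thus expected to be larger there from noise alone, so that its counts in that experiment are no result about these genes. The same counts over all genes were not made. The replicate ratio was the larger one for 8 of 8 genes in epithelial and 7 of 8 in stromal cells of the glucose experiment, and for 7 of 8 in each cell type of the insulin experiment. In epithelial cells with insulin it reached 2.61, for SESN3, whereas the dose ratios were 1.06 to 1.24. For KLHL24, the epithelial exception with insulin, the ratios were 1.04 over replicates and 1.09 over doses. SESN3 was the stromal exception in the glucose experiment, with 1.87 over replicates and 3.06 over glucose concentrations. In stromal cells with insulin the exception was SESN1, with 1.11 over replicates and 1.26 over doses. The replicate number entered each test as a block, after the paired design that the study's methods state.

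The first question was whether insulin lowered the FOXO targets or changed the FOXO transcripts in epithelial cells. Calls required both an adjusted p below 0.05 in the quasi-likelihood test of edgeR and a change of more than 0.1, up or down, on the log2 scale. Of the 8 genes, 0 were called at 1 ng/mL against vehicle, where 0% of the 12966 genes tested were called. None of the 8 had an unadjusted p under 0.05 in this comparison, against 2.95% of all genes tested, and DESeq2 gave 0 members on either count. The log2 fold changes ranged from -0.20 for PDK4 to 0.14 for FOXO1. FOXO1 was higher in 3 of 3 pairs, with an interval of the log2 fold change from -0.01 to 0.283 (95%; adjusted p = 1 by the quasi-likelihood test of edgeR).

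At 10 ng/mL against vehicle, 0 of the 8 genes were called in epithelial cells either, against 0.124% of 12853 genes tested. PDK4 and SESN3 had an unadjusted p under 0.05, as did 6.96% of all genes tested, and DESeq2 gave 0 members with such a p and 0 calls. SESN3 was lower in 3 of 3 pairs, with a log2 fold change of -0.19 (95% interval -0.364 to -0.025, adjusted p = 0.68 by the quasi-likelihood test of edgeR). PDK4 was lower in 3 of 3 pairs, with -0.26 (95% interval -0.51 to -0.01, adjusted p = 0.697 from the same test). CCNG2 was lower in 3 of 3 pairs too, with -0.10 and an interval from -0.254 to 0.045. The group means of PDK4 were 11.7 ± 3.16 CPM in the vehicle group and 9.73 ± 1.59 CPM at 10 ng/mL, and those of SESN3 were 28.4 ± 10.7 and 25.1 ± 11 CPM (SD, n = 3 for each). Both differences were smaller than the SD of the vehicle group. That SD holds the differences between replicate numbers, which the block takes off, so it is not the spread that the test uses. KLHL24, the target with the opposite sign, had 0.12 and was higher in 3 of 3 pairs, with an interval from -0.023 to 0.253. SESN1 had -0.23 with 1 of 3 pairs higher. Over the 8 genes the median log2 fold change was -0.15, and over all genes tested it was -0.004.

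Between 1 and 10 ng/mL, 0 of 8 genes were called in epithelial cells by edgeR, against 0% of 12873 genes tested, and 0 by DESeq2. FOXO3 was the only one of the 8 with an unadjusted p under 0.05 in edgeR, against 4.44% of all genes, and DESeq2 gave 0. Its log2 fold change was 0.14 (95% interval 0.007 to 0.277), and it was higher in 2 of 3 pairs. FOXO1, FOXO4 and SESN1 were lower at 10 ng/mL in 3 of 3 pairs, with -0.10, -0.26 and -0.31, and all 3 intervals included 0. In the test of any difference among the 3 doses, 0 of the 8 genes were called by edgeR or by DESeq2, and 0 had an unadjusted p under 0.05, against 0% and 4.4% of 13260 genes tested by edgeR. Thus the name of the 5 targets as genes repressed by insulin rests on knowledge from other tissues and not on a called change here.

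**Figure D2:**
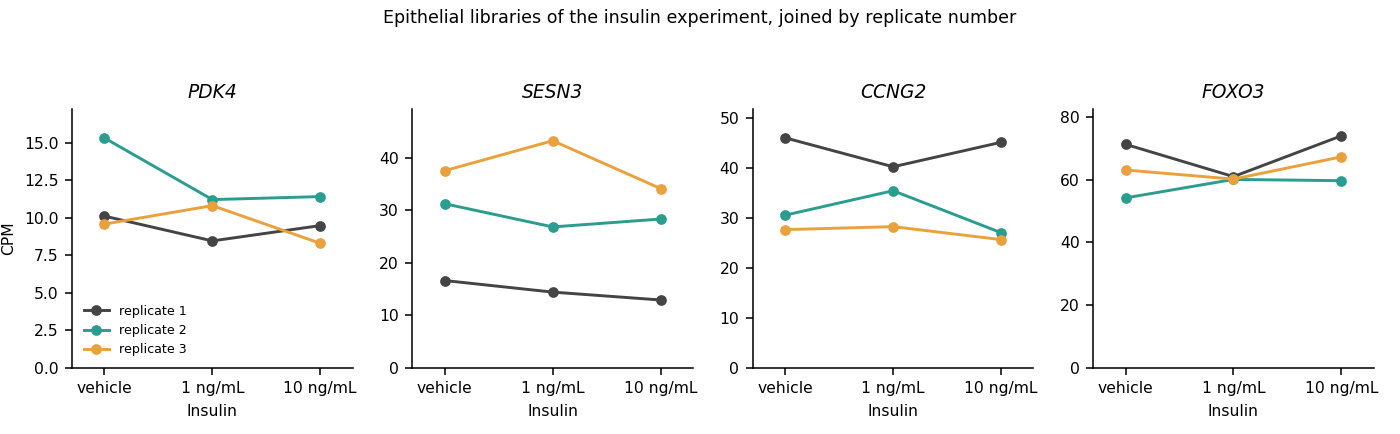
PDK4, SESN3, CCNG2 and FOXO3 in the 9 epithelial libraries of the insulin experiment, in CPM against insulin dose, with lines joining libraries of one replicate number. PDK4, SESN3 and CCNG2 end below their vehicle level at 10 ng/mL in 3 of 3 replicates, but no gene shown was called. Of the targets not shown, KLHL24 was higher at 10 ng/mL in 3 of 3 pairs and SESN1 in 1 of 3.

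In stromal cells with 1 ng/mL insulin against vehicle, 0 of 8 genes were called by edgeR, against 0.0157% of 12711 genes tested, and 0 by DESeq2. FOXO3 was the one gene with an unadjusted p under 0.05, against 5.16% of all genes tested, and DESeq2 gave 0. It was lower in 3 of 3 pairs, with a log2 fold change of -0.20 (95% interval -0.371 to -0.019, adjusted p = 0.917 by the quasi-likelihood test of edgeR). Its means were 28.5 ± 1.34 CPM in the vehicle group and 24.5 ± 2.77 CPM at 1 ng/mL (SD, n = 3). From 1 to 10 ng/mL it was higher in 3 of 3 pairs, with 0.18 (95% interval 0.006 to 0.362, adjusted p = 1). Both comparisons share the libraries at 1 ng/mL. Between 10 ng/mL and vehicle, FOXO3 had -0.01 with an interval from -0.194 to 0.172.

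CCNG2 exceeded its vehicle level at 1 ng/mL in 3 of 3 stromal pairs, with 0.26 and an interval from -0.008 to 0.523. At 10 ng/mL against vehicle, PDK4 did not pass the filter on low counts, 0 of the 7 genes tested were called by edgeR or DESeq2, and 0 had an unadjusted p under 0.05, against 0% and 2.79% of 12779 genes tested by edgeR. Between 1 and 10 ng/mL, 0 of 8 genes were called by edgeR or DESeq2, against 0.0313% of 12772 genes by edgeR, and FOXO3 alone had an unadjusted p under 0.05 (DESeq2 0), against 3.91% of all genes. SESN1 was higher at 10 ng/mL in 3 of 3 pairs without overlap, with 0.31 and an interval from -0.041 to 0.663. In the test over the 3 doses, 0 of 8 genes were called by either tool. Of the 13059 genes tested, edgeR called 0% and DESeq2 5, and FOXO3 alone had an unadjusted p under 0.05 in edgeR (0 of the 8 in DESeq2), against 3.19% of all genes. The interval of PDK4 in stromal cells at 1 ng/mL against vehicle ran from -1.58 to 1.011, at 2 to 24 counts per library.

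Whether the values moved differently with insulin in the cell types was tested with an interaction term. By edgeR and by DESeq2, 0 of 8 genes were called for 1 ng/mL against vehicle, where edgeR called 0.658% of 13976 genes and DESeq2 28, and 0 had an unadjusted p under 0.05, against 6.78% by edgeR. For 10 ng/mL against vehicle, 0 of 8 were called by either tool and 0 had such a p, against 0% and 4.05% of 13904 genes by edgeR. For 10 against 1 ng/mL, 0 of 8 were called by either tool, where edgeR called 0.754% of 13924 genes and DESeq2 51. SESN1 had the one unadjusted p under 0.05 there in edgeR (0 in DESeq2), against 6.83% of all genes. Its epithelial change minus its stromal change was -0.63 on the log2 scale (95% interval -1.156 to -0.097, adjusted p = 0.575 by the quasi-likelihood test of edgeR).

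With glucose, 0 of the 8 genes were called between 50 and 5 mM in epithelial cells, against 0% of 13713 genes tested. None had an unadjusted p under 0.05, against 1.55% of all genes, and DESeq2 gave 0 on both counts. SESN1 came nearest, at 3.33 ± 2.34 CPM at 5 mM and 5.30 ± 1.63 CPM at 50 mM (SD, n = 3), higher in 3 of 3 pairs. Its log2 fold change was 0.82 (95% interval -0.036 to 1.685, adjusted p = 0.804 by the quasi-likelihood test of edgeR). KLHL24 was higher in 3 of 3 pairs as well, with 0.50 and an interval from -0.101 to 1.104. FOXO3 and FOXO4 had -0.39 and -0.36 with 1 of 3 pairs higher, and PDK4 had 0.24.

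Epithelial replicate 2 at 5 mM, the library with the high marker level, was the highest or lowest of the 6 epithelial libraries for 7 of the 8 genes. The same was not counted over all genes, so this is no result about the 8. Without replicate 2, the log2 fold changes were -0.05 for FOXO3, -0.01 for FOXO4, 0.55 for SESN1, 0.33 for KLHL24 and -0.07 for PDK4. Among the 8 genes CCNG2 was called in that fit alone, with 0.49 without replicate 2 (adjusted p = 0.039) against 0.14 with all libraries (adjusted p = 0.872), both by the quasi-likelihood test of edgeR. That fit called 221 of 13906 genes, against 0 with all libraries and 0 without replicate 1 or 3. It keeps the block on fewer libraries, so few degrees of freedom are left. Without replicate 1 or 3 CCNG2 had -0.09 and -0.03. The part of that library's marker level in these values was not tested.

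In stromal cells, 0 of 8 genes were called between 50 and 5 mM glucose by edgeR or DESeq2, where edgeR called 0% of the 13644 genes tested and DESeq2 174. By edgeR 0 of 8 had an unadjusted p under 0.05, against 4.87% of all genes, and by DESeq2 2 of 8. The largest fold changes were those of the targets that stand higher in epithelial cells. PDK4 had a log2 fold change of 1.81 (95% interval -0.699 to 4.316, adjusted p = 0.696 by the quasi-likelihood test of edgeR) and SESN3 had 1.54 (95% interval -0.558 to 3.645, adjusted p = 0.696). CCNG2 had 0.61 with an interval from -0.215 to 1.444. The other 5 genes were between -0.14 and 0.21. Stromal replicate 3 at 50 mM was the highest of the 6 stromal libraries for 5 of the 8 genes, FOXO3 and KLHL24 (66.3 CPM) among them. This too was not counted over all genes.

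The level of the epithelial markers stands beside these values. In stromal replicates 1, 2 and 3 they stood at 8.31%, 2.28% and 0.582% at 5 mM glucose and at 16.6%, 8.82% and 55.2% at 50 mM. They were thus higher at 50 mM in 3 of 3 pairs, as was SESN3, whereas PDK4 and CCNG2 were lower in replicate 1 and higher in replicates 2 and 3. Without replicate 3, PDK4 had 0.54, SESN3 0.60, CCNG2 0.23 and FOXO3 -0.17, and without replicate 1 PDK4 had 3.03 and SESN3 2.33, none of them called. With insulin, stromal libraries above 1% of the epithelial marker level were vehicle replicate 2 (3.97%) and 10 ng/mL replicate 1 (4.01%). These had 2.17 and 2.35 CPM of PDK4, the highest values of their groups. At 1 ng/mL, however, replicate 1 had 2.04 CPM of PDK4 with epithelial markers at 0.143%, and SESN3 was highest in replicate 3 of each dose, with markers at 0.0838%, 0.128% and 0.423%. The part of epithelial RNA in the stromal values was not tested.

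**Figure D3:**
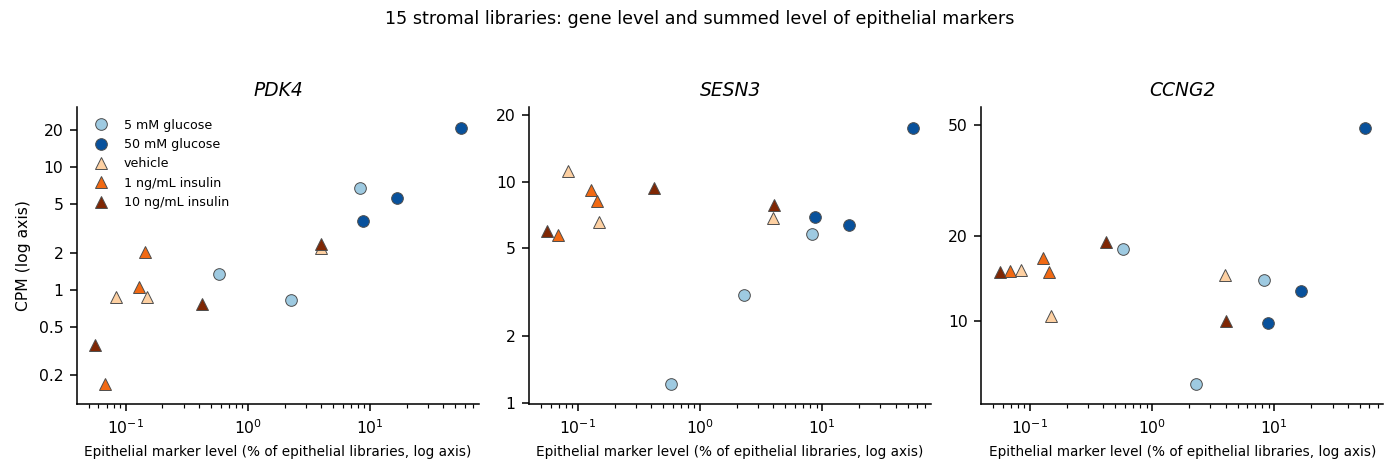
PDK4, SESN3 and CCNG2 in the 15 stromal libraries, in CPM, against the summed level of the 28 epithelial markers as a percent of its mean in the epithelial libraries of the same experiment, both on log axes. Circles are glucose and triangles insulin libraries. The library with markers at 55.2% has the highest level of all 3 genes, and PDK4 above 3 CPM occurs only at markers of 8.31% or more.

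The difference between the cell types in the response to glucose was not called for any of the 8 genes by edgeR or DESeq2. Of the 14640 genes tested, edgeR called 0% and DESeq2 241. By edgeR 0 of 8 had an unadjusted p under 0.05, against 7.53% of all genes, and by DESeq2 1 of 8. The smallest p-values were those of KLHL24, whose epithelial minus stromal change was 0.57 (95% interval -0.033 to 1.17), and of SESN1 with 0.93 (95% interval -0.063 to 1.926), with adjusted p = 0.682 and 0.687 by the quasi-likelihood test of edgeR.

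**Figure D4:**
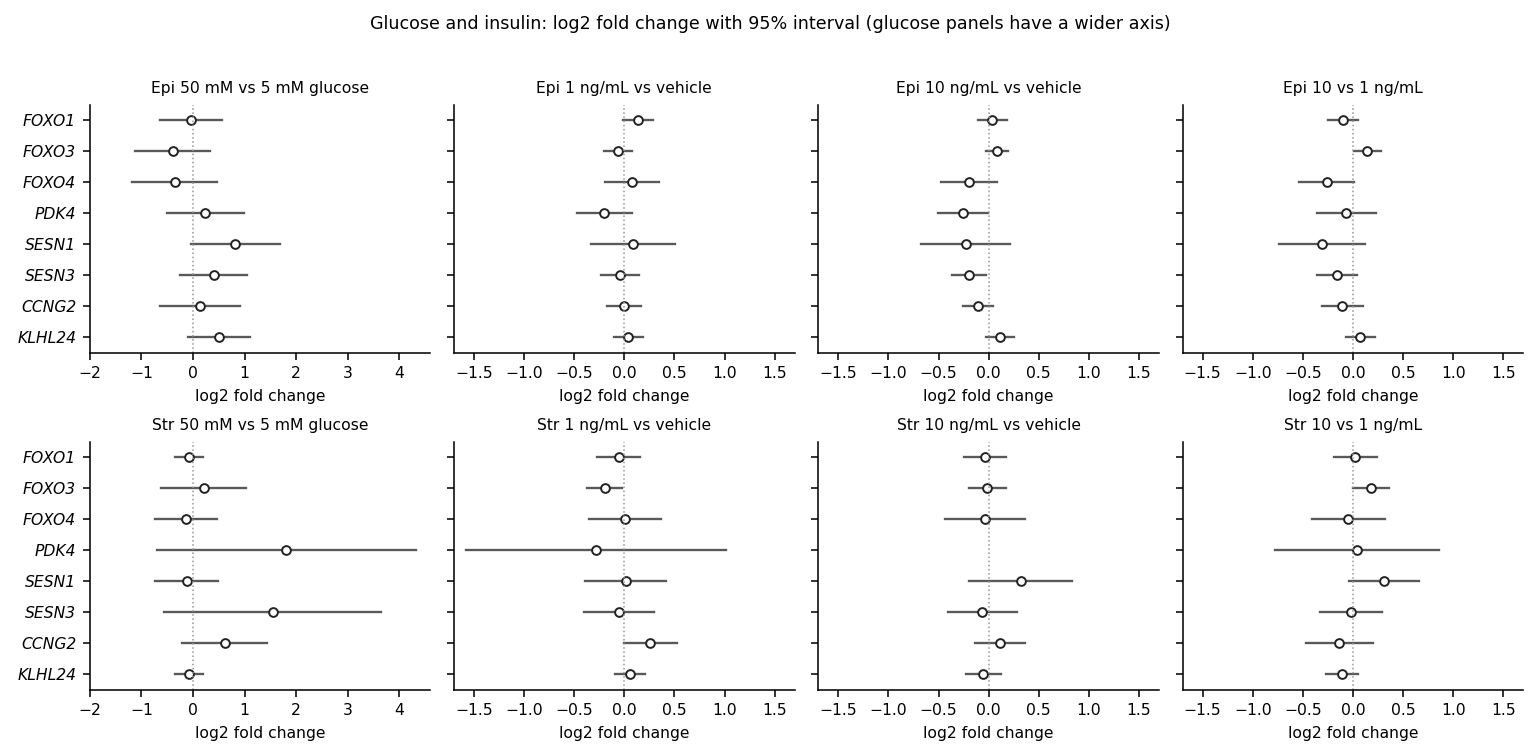
Log2 fold change of the 8 genes in the 8 treatment comparisons, with 95% intervals from edgeR's quasi-likelihood fit. Open points mark genes that were not called, which holds for every point shown, and PDK4 has none in stromal cells at 10 ng/mL against vehicle. The stromal glucose intervals of PDK4 and SESN3 are the widest, and with insulin only PDK4 and SESN3 (epithelial, 10 ng/mL against vehicle) and FOXO3 (10 against 1 ng/mL in both cell types and stromal 1 ng/mL against vehicle) have intervals that leave out 0.

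In contrast to the treatments, the cell types differed in the level of several of these genes. In the vehicle group 4 of the 8 genes were called higher in epithelial than in stromal cells and 0 lower by edgeR, and DESeq2 called 4. Over all genes DESeq2 called 6865 of 13395. By edgeR 27.8% of the 13395 genes tested were called higher and 27.3% lower in epithelial cells. With both directions together 7392 were called, so that calls were about as common among all genes as among the 8. The same holds at 1 ng/mL, with 7852 of 13334 genes called, and at 10 ng/mL, with 7224 of 13274. FOXO3 had 62.9 ± 8.52 CPM in epithelial and 28.5 ± 1.34 CPM in stromal cells (SD, n = 3), a log2 fold change of 1.06 (adjusted p = 0.00301 by the quasi-likelihood test of edgeR). PDK4 had 11.7 ± 3.16 and 1.30 ± 0.752 CPM, a log2 fold change of 3.13 (adjusted p = 0.00154). SESN3 had 28.4 ± 10.7 and 8.20 ± 2.57 CPM, with 1.68 (adjusted p = 0.00244), and CCNG2 had 34.8 ± 9.91 and 13.4 ± 2.59 CPM, with 1.28 (adjusted p = 0.0272). The groups of these 4 genes did not overlap, nor did those of FOXO4 and SESN1, which were not called. How many of all genes had groups without overlap was not counted. SESN1 was lower in 3 of 3 epithelial pairs without overlap, at 3.79 ± 0.837 against 5.74 ± 1.57 CPM, but was not called, with -0.66 (95% interval -1.237 to -0.092, adjusted p = 0.0549). FOXO4 had 0.60 with an interval from -0.095 to 1.305, and KLHL24 had -0.02 with an interval from -0.33 to 0.289.

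At 1 ng/mL insulin DESeq2 called 4 of 8 genes, and over all genes 6708 of 13334. By edgeR 5 of 8 genes were called higher in epithelial cells and 0 lower, against 29.6% and 29.3% of 13334 genes. They were FOXO3 (1.2), FOXO4 (0.69), PDK4 (3.2), SESN3 (1.67) and CCNG2 (1.03). The value of PDK4 was 4.05 without replicate 1 and 2.54 without replicate 2, and it was called in both fits. The call of FOXO4 (adjusted p = 0.0203) was lost in DESeq2 (adjusted p = 0.0505), without replicate 1 (0.064) and without replicate 3 (0.0922). SESN1 had -0.60 (adjusted p = 0.0502, and 0.0416 without the replicate block). FOXO1 had 0.44 (adjusted p = 0.0563) and was called without replicate 2, with 0.64 (adjusted p = 0.00998). The fit without replicate 2 called 6740 of 13511 genes, and the fit without the block 7790 of 13334. All these adjusted p-values other than that of DESeq2 are from the quasi-likelihood test of edgeR.

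At 10 ng/mL insulin 3 of 8 genes were called higher and 1 lower in epithelial cells, against 27.1% and 27.3% of 13274 genes, and DESeq2 called 5. Over all genes DESeq2 called 6628 of 13274. FOXO3 had 1.14, PDK4 3.08 and SESN3 1.51. PDK4 had 3.95 without replicate 1 and 2.51 without replicate 2, and it was called in both fits. SESN3 had 25.1 ± 11 CPM in epithelial and 7.72 ± 1.68 CPM in stromal cells, and its call (adjusted p = 0.0129) was lost without replicate 3, with 1.42 (adjusted p = 0.0705). SESN1 was the gene called lower, at 3.28 ± 0.557 in epithelial and 7.13 ± 1.08 CPM in stromal cells, with -1.23 (95% interval -1.742 to -0.714, adjusted p = 0.00707 by the quasi-likelihood test of edgeR). Without the replicate block, CCNG2 (1.04, adjusted p = 0.0351) and FOXO4 (0.45, adjusted p = 0.0434) were called too, while with the block they had adjusted p = 0.0912 and 0.0791. The fit without the block called 7605 of 13274 genes. CCNG2 was also called by DESeq2 (1.06, adjusted p = 0.0491). Thus the sestrins lay in opposite orders, with SESN3 higher and SESN1 lower in the epithelial library of 3 of 3 pairs at each insulin dose. The difference between the doses in this cell type contrast of SESN1 did not pass the interaction test given above.

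In the glucose experiment fewer genes were called between the cell types, of the 8 and of all. At 5 mM, 2 of 8 genes were called higher and 0 lower in epithelial cells, against 10.5% and 10.6% of 13927 genes, and DESeq2 called 3. Over all genes DESeq2 called 3864 of 13927. SESN3 had 34.1 ± 14.5 CPM in epithelial and 3.37 ± 2.3 CPM in stromal cells, a log2 fold change of 3.28 (adjusted p = 0.00713). PDK4 had 16.8 ± 15.0 and 2.98 ± 3.30 CPM, with 2.47 (adjusted p = 0.0112). The call of PDK4 needed the replicate block, since without it the value was 2.24 with adjusted p = 0.137, and over the 7 alternatives the adjusted p ran from 3.03e-06 to 0.137. KLHL24 was lower in 3 of 3 epithelial pairs, with -1 (adjusted p = 0.0764 by the quasi-likelihood test of edgeR), and was the gene that DESeq2 added (adjusted p = 0.0387). Without replicate 1, FOXO3 (1.55) and CCNG2 (1.66) were called too, in a fit that called 3219 of 14165 genes. FOXO4 had a log2 fold change of -0.24 on the TMM scale and mean levels of 12.4 and 12.1 CPM. It was higher in 1 of 3 pairs both on plain CPM and on the TMM scale.

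At 50 mM glucose 0 of 8 genes were called by edgeR, against 6.39% of 13892 genes higher and 10.9% lower in epithelial cells, 2 of 8 had an unadjusted p under 0.05, and DESeq2 called 1. Over all genes DESeq2 called 3529 of 13892. SESN3 had 44.9 ± 17.4 CPM in epithelial and 10.3 ± 6.28 CPM in stromal cells, higher in 3 of 3 pairs, with 2.06 (95% interval 0.729 to 3.399, adjusted p = 0.0535 by the quasi-likelihood test of edgeR). It was the gene that DESeq2 called, and it was also called without the replicate block (adjusted p = 0.0473). The fit without the block called 1088 of 13892 genes. FOXO1 was the other gene with an unadjusted p under 0.05, with -0.47 (adjusted p = 0.108). PDK4 had 16.6 ± 9.07 and 10.0 ± 9.44 CPM and a log2 fold change of 0.88. Without replicate 3, whose stromal library had the high epithelial marker level, PDK4 had 1.75 (adjusted p = 0.011) and SESN3 had 2.83 (adjusted p = 0.00322), and both were called. That fit called 3897 of 14010 genes, against 2397 of 13892 with all libraries. Without replicate 1 it was 0 of 14019 and without replicate 2 it was 2029 of 14055. Each of these fits keeps the block on fewer libraries, so few degrees of freedom are left.

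**Figure D5:**
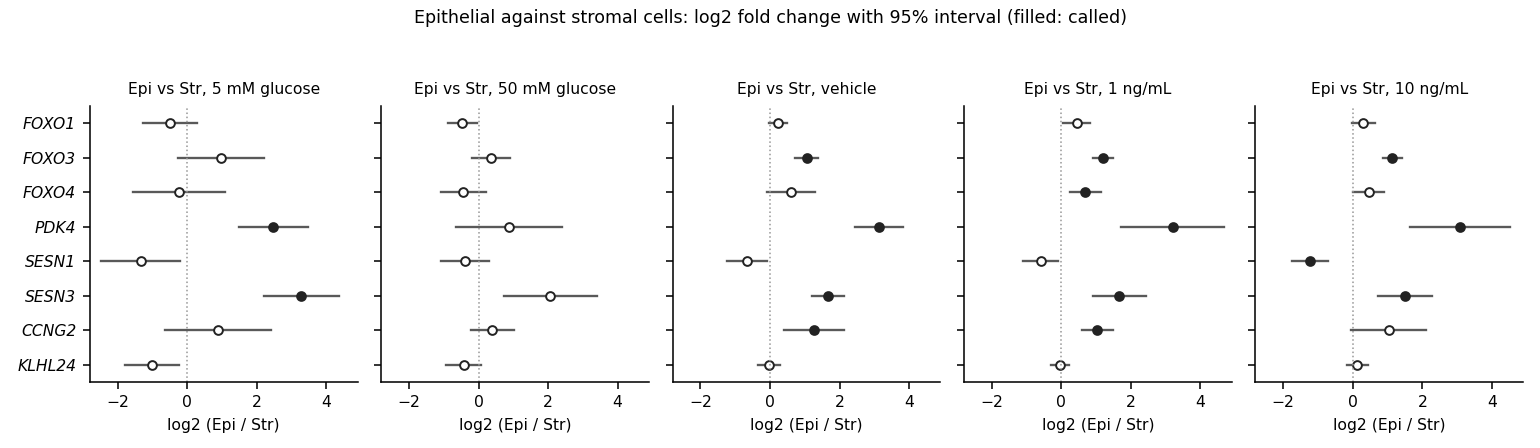
Log2 fold change of the 8 genes in epithelial against stromal cells in each of the 5 conditions, with 95% intervals from edgeR's quasi-likelihood fit; filled points were called. FOXO3, PDK4 and SESN3 are called in all 3 insulin groups, SESN1 lies below 0 in every condition, and 0 of 8 genes are called at 50 mM glucose.

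Genes around the FOXO factors were taken from lists, which are described by counts. The 39 FOXO regulators hold insulin receptor, PI3K and AKT components, phosphatases and binding proteins, and 37 or 38 of them were tested. In the 8 treatment comparisons 0 were called by edgeR, with 0 to 5 under an unadjusted p of 0.05. The 5 of 38 were at 10 ng/mL against vehicle in epithelial cells, where 6.96% of all genes tested had such a p. SGK1, a kinase that phosphorylates FOXO proteins, had the smallest of these p-values, with 0.19 in stromal cells at 1 ng/mL against vehicle (adjusted p = 0.91). The receptor gene IGF1R had 0.12 in epithelial cells at 1 ng/mL (adjusted p = 1), and the acetyltransferase gene CREBBP had 0.11 at 10 ng/mL (adjusted p = 0.675). Between the cell types in the vehicle group, 9 of 38 were called higher and 11 lower in epithelial cells, against 27.8% and 27.3% of all genes tested. The catalytic subunits of PI3K lay on both sides, with PIK3CB at 73.4 ± 7.06 CPM in epithelial and 7.49 ± 0.569 CPM in stromal cells and PIK3CA at 76.9 ± 6.56 and 193 ± 22.9 CPM. SFN, an epithelial binding protein, had 6.85, the AKT phosphatase PHLPP2 had 0.91, the ubiquitin ligase subunit SKP2 had -1.32 and the binding protein gene YWHAQ had -1.31.

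Of 59 other FOXO targets, 54 were found and 49 to 52 tested, and 0 were called in the 8 treatment comparisons, with 0 to 6 under an unadjusted p of 0.05. The 6 were of 50 at 10 ng/mL against vehicle in epithelial cells, against 6.96% of all genes. TXNIP, which restrains glucose uptake, was lower at 1 ng/mL insulin in 3 of 3 epithelial pairs, from 52.4 ± 24.1 to 40.1 ± 16.5 CPM, with -0.38 (adjusted p = 0.356). SMAD3 had 0.21 at 10 ng/mL against vehicle (adjusted p = 0.177) and GADD45B had -0.28 at 10 against 1 ng/mL (adjusted p = 0.983), both in epithelial cells. In the vehicle group 19 of 50 were called higher and 10 lower in epithelial cells, against 27.8% and 27.3% of all genes. They included ERBB3 (7.18), PMAIP1 (4.57) and MXI1 (2.84), which were higher, and PPARGC1A (-5.15), KLF2 (-2.93) and TSC22D3 (-2.86), which were lower. ERBB3, a receptor that is also on the list of epithelial markers, was called in the interaction tests of 1 ng/mL against vehicle (3.67, or 0.15 without replicate 2) and of 10 against 1 ng/mL (-3.85, or -1.61 without replicate 1). Those replicates hold the stromal libraries with epithelial markers near 4%, a sum that includes ERBB3 itself. The part of epithelial RNA in these calls was not tested. Both calls of ERBB3 were lost without the replicate block (3.69 and -3.98, adjusted p = 1 for each by the quasi-likelihood test of edgeR), where 0 genes were called in either test, and in DESeq2 (adjusted p = 1 and 0.63).

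The 12 relatives of the 5 targets had 0 calls in the treatment comparisons, with 0 to 1 under an unadjusted p of 0.05 (1 of 12 at 10 ng/mL against vehicle in epithelial cells, against 6.96% of all genes). SESN2, the third sestrin, had 0.17 in epithelial cells at 10 ng/mL insulin against vehicle (adjusted p = 0.458), CCNI had 0.28 in stromal cells between the glucose concentrations (adjusted p = 0.696) and PDP1, which acts against the PDK kinases, had 0.09 in epithelial cells at 1 ng/mL (adjusted p = 1). In the vehicle group 3 of 12 were called higher in epithelial cells and 0 lower, against 27.8% and 27.3% of all genes. PDK1, another kinase of pyruvate dehydrogenase, had 98.0 ± 27.5 CPM in epithelial and 16.0 ± 1.25 CPM in stromal cells, with 2.50 (adjusted p = 0.00173). CCNG1, the other cyclin G, had 0.75 and CCNI had 0.59.

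Of 24 partners and targets of FOXO1 in the endometrium, 23 were found and 16 to 20 tested, and 3 calls were made in the treatment comparisons. Of 17 genes tested, 2 were called at 10 ng/mL against vehicle in epithelial cells, against 0.124% of all genes. Stromal 10 against 1 ng/mL had 1 call of 17, against 0.0313%. From 0 to 6 genes had an unadjusted p under 0.05. The 6 were in the former comparison, against 6.96% of all genes, and stromal 1 ng/mL against vehicle had 5, against 5.16%. Between the glucose concentrations, epithelial cells had 3 of 18, against 1.55%. The list was chosen with earlier results of these data known. CEBPB, a partner of FOXO1 in the decidual response, rose at 10 ng/mL insulin in epithelial cells, from 14.7 ± 3.65 to 23.5 ± 5.62 CPM and in 3 of 3 pairs, with 0.67 (adjusted p = 0.000344 by the quasi-likelihood test of edgeR). IGFBP3, which binds insulin-like growth factors, rose in the same comparison, from 663 ± 401 to 782 ± 407 CPM and in 3 of 3 pairs, with 0.26 (adjusted p = 0.0285). IGFBP5 rose in stromal cells from 1 to 10 ng/mL, from 20.0 ± 17.6 to 36.8 ± 29.8 CPM and in 3 of 3 pairs, with 0.91 (adjusted p = 0.0395). In the interaction test of 10 against 1 ng/mL IGFBP5 was called with -0.86 (adjusted p = 0.00184), and by DESeq2 (adjusted p = 0.00797). This call was lost without the replicate block (-0.83, adjusted p = 1 by the quasi-likelihood test of edgeR) and without replicate 2 (-0.92, adjusted p = 0.067). For the treatment comparisons, without the replicate block 0 of these 3 were called (adjusted p = 1 for each). The calls were also lost in DESeq2 for CEBPB (adjusted p = 0.334) and IGFBP3 (adjusted p = 1), without replicate 3 for IGFBP3 (0.11, adjusted p = 0.782) and without replicate 2 for IGFBP5 (0.97, adjusted p = 0.0704). In the fit of all 9 epithelial or stromal insulin libraries they had adjusted p = 0.705, 0.338 and 1. With glucose, epithelial CEBPB had 59.5, 37.7 and 26.5 CPM at 5 mM and 19.8, 13.9 and 20.8 CPM at 50 mM. It was lower in 3 of 3 pairs but was not called. Stromal CEBPB had 91.6, 24.6 and 60.2 CPM at 5 mM and 45.0, 43.9 and 57.2 CPM at 50 mM. In the vehicle group 5 of 19 genes of this list were called higher in epithelial cells, among them SOX17 (5.81), IL15 (3.70) and IGFBP3 (3.41). Over all genes tested 27.8% were higher. Another 13 were lower, against 27.3% of all genes, among them HAND2 (-6.50), DCN (-5.28) and HOXA10 (-4.77), of which HAND2 and DCN are on the stromal marker list.

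The 14 genes that insulin is known to raise had 0 calls in the treatment comparisons, with 0 to 5 under an unadjusted p of 0.05. The 5 of 14 were at 1 ng/mL against vehicle in stromal cells, where 5.16% of all genes had such a p. The median log2 fold change of the list there was -0.056, against -0.004 over all genes. Its sign is thus opposite to a rise with insulin. The smallest p-values were those of the glucose transporter gene SLC2A1 (-0.66 in stromal cells at 1 ng/mL against vehicle, adjusted p = 0.63), of PFKFB3 (-0.26 in stromal cells at 10 against 1 ng/mL, adjusted p = 1) and of the fatty acid synthase gene FASN (-0.16 in stromal cells at 1 ng/mL, adjusted p = 0.895). In the vehicle group 8 of 14 were called higher in epithelial cells and 1, EGR1 (-0.70), lower, against 27.8% and 27.3% of all genes. SLC2A1 had 747 ± 41.8 CPM in epithelial and 34.5 ± 13.4 CPM in stromal cells, with 4.42. The desaturase gene SCD had 3.77 and the hexokinase gene HK2 had 2.56.

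For each of the 8 genes, the genes of most similar pattern were sought over the 30 libraries, by Pearson's r of log2(CPM + 0.5) after the mean of each cell type in each experiment was taken off. The libraries share depth, replicate and experiment, so that r is a description. Most like FOXO1 was PTPN1 (r = 0.863), followed by BLCAP and CHST11. For FOXO3 it was VEGFA (r = 0.919), followed by BCR and CDC42BPG, and for FOXO4 NISCH (r = 0.871), followed by ZBTB4 and FYCO1. PDK4 had ITGA6, MFSD6 and KLK10 (r = 0.889 for each), SESN3 had DSC2 (r = 0.887), ARPC1A and MPP7, and SESN1 had RCOR3 (r = 0.827), CYP20A1 and MYO9A. CCNG2 had KDM2A (r = 0.913), FAM117B and ZMYM2, and KLHL24 had NBR1 (r = 0.932), HBP1 and PNRC1, of which HBP1 is on the list of other FOXO targets. When the replicate means were also taken off, 0 of 3 genes were kept for each of the 8. Among the 8 genes themselves, PDK4 and SESN3 were most alike (r = 0.683, or 0.871 with the replicate means off). CCNG2 and KLHL24 followed with r = 0.653, which was -0.019 with the replicate means off, whereas FOXO3 and CCNG2 had 0.608 and 0.623, and SESN1 and KLHL24 had 0.575 and 0.573.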

How the data were processed

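The authors extracted total RNA from epithelial and stromal cells, made stranded libraries (NuGEN) and sequenced them as single-end reads. Per the study's methods, reads were trimmed with Cutadapt, filtered with fastq_quality_filter, aligned with Rsubread to the bovine genome with Ensembl annotation, and counted per gene with featureCounts; versions of these tools were not given in the sources used here. The deposited values were raw counts per gene, not normalized, and 0 columns were left unmatched to a sample. The deposited tables of the authors' own comparisons hold fold changes and p-values, and were used only for gene names and types.

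Counts were tested with edgeR 4.0.16 (limma 3.58.1, R 4.3.3): TMM scaling, filterByExpr, quasi-likelihood test, replicate number as a block, and Benjamini-Hochberg adjustment over all genes tested. Pairs of groups were fitted on their 6 libraries, and called at adjusted p under 0.05 and a log2 fold change beyond 0.1; interaction and dose tests were called on the adjusted p. Levels are CPM computed from the counts and the library totals, and 95% intervals come from the fit's standard error. DESeq2 1.42.0 and the other settings are under the closing section. The scripts were tested on simulated counts. The numbers paired the libraries: deviations of same-numbered libraries correlated at 0.207 to 0.846 between treatments (24 of 24 above 0.1) and at 0.032 to 0.514 between cell types (12 of 15 above 0.1). Between cell types the numbers thus did not pair every library by this measure, and the block there follows the study's methods. No 2 libraries held identical counts.

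The 8 genes and the lists were chosen with earlier results of these data known. All 8 genes are named. From each list (FOXO regulators, other FOXO targets, relatives of the targets, endometrial FOXO1 partners and targets, genes raised by insulin) the genes called in a treatment comparison are named or, with none, the 3 with the smallest p, together with the 3 called genes of the largest difference in each direction between the cell types in the vehicle group. ERBB3 and IGFBP5 in the interaction tests and CEBPB with glucose were named after their values were seen. Genes of like pattern had a mean of at least 5 CPM. Genome coordinates and sequences are not used here.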

Additional observations from a re-analysis of the deposited data

Results flagged for a closer look

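FOXO1 had a log2 fold change of epithelial against stromal cells of -0.49 at 5 mM glucose in the glucose experiment and of 0.24 in the vehicle group of the insulin experiment, which also had 5 mM glucose. It stands out because, on the scale of TMM-corrected library sizes, the epithelial library was lower in 3 of 3 pairs of the first and higher in 3 of 3 pairs of the second. On plain CPM it was higher in 1 of 3 and in 3 of 3 pairs. Neither value was called (adjusted p = 0.348 and 0.0981 from edgeR's quasi-likelihood test), and the difference between the experiments was not tested.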

How the results depend on the processing

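The count of the 8 genes called kept within 1.5 times its value in 132 of the alternatives run, was larger in 6 and smaller in 1. In most of the 132 the count was 0 in both fits, where this rule says little. It also covers 4 against 6 calls between the cell types at 10 ng/mL without the block. Without replicate blocks it was 1 in place of 2 between the cell types at 5 mM glucose and 1 in place of 0 at 50 mM, where DESeq2 and the test of every gene with at least 1 count also gave 1. Leaving out 1 replicate gave 0 to 1 for epithelial glucose, 2 to 4 between the cell types at 5 mM and 0 to 2 at 50 mM. Such a fit keeps the block on fewer libraries, so few degrees of freedom are left for the spread. Calls gained or lost in it are thus unstable. For the 8 genes the block changed no call in the treatment comparisons. Over all genes, at most 16 were called in a treatment comparison, against 174 with DESeq2, 165 without the filter, 0 without the block, 0 in the fit of all 9 insulin libraries of a cell type, and 66, 221 and 103 without replicate 1, 2 and 3. Between cell types, calls over all genes ran from 2397 to 7852, and from 0 to 6345 without replicate 1. TMM and DESeq2's size factors shifted the median of all genes by at most 0.023.

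Fold changes of the 8 genes were recomputed for both glucose and all cell type comparisons and for 5 of the insulin values (PDK4 and SESN3 in epithelial cells at 10 ng/mL against vehicle and FOXO3 in 3 comparisons). Among these the sign changed in 10 cases, each with a replicate left out and none called in the full data. In epithelial cells with glucose the ranges were -0.23 to 0.097 for FOXO1, -0.073 to 0.486 for PDK4 and -0.086 to 0.489 for CCNG2 (-0.025 without replicate 3). In stromal cells with glucose they were -0.173 to 0.543 for FOXO3, -0.321 to 0.1 for FOXO4 and -0.327 to 0.017 for SESN1 (0.002 without replicate 1). Between cell types they were -0.859 to 0.267 for FOXO4 at 5 mM glucose and -0.104 to 0.084 for KLHL24 in the vehicle group. The cause was not tested. On TMM-corrected library sizes, the epithelial means at 1 ng/mL were 58.9 CPM for FOXO3 and 39.5 CPM for KLHL24. With 3 libraries a group and 8826470 counts or more a library, low genes such as stromal PDK4 were not resolved.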
